A study of Mus musculus with 32 samples.

Results

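The 38 genes described here encode the proteins that license, start and carry out DNA replication in S phase, supply its deoxynucleotides and rebuild chromatin behind the fork. They were chosen by name and not by a cut on their measured values, with earlier results of these data known. All 38 matched 1 Ensembl gene each among the 50686 genes of the count table, and all 38 were expressed above the filter on low counts in every fit. By role they comprise 10 licensing genes, 6 genes of helicase activation, 5 of the polymerases and primase, 5 of the sliding clamp and its loader, 2 of single-strand binding, 2 of Okazaki fragment maturation, 2 of deoxynucleotide supply, 3 of G1/S control and 3 of chromatin behind the fork.

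Before S phase, the origin recognition complex, CDC6 and CDT1 load the MCM helicase onto origins, and cyclin E with its kinase and E2F transcription factors commit the cell to replication. At the fork CDC45 and the GINS complex turn MCM into an active helicase, primase and the polymerases copy the strands, and PCNA holds the polymerases on DNA. In intestinal crypts, Lgr5-high stem cells at the base divide, and their progeny in the transit-amplifying zone divide rapidly before they differentiate.

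The samples were polyA RNA libraries of crypt cells sorted from C57BL6 mice as Lgr5-eGFP high (intestinal stem cells) or Lgr5-eGFP low (progenitors), both EpCAM+, CD24 low or negative, and negative for CD31, Ter119, CD45 and the dead-cell dye 7AAD. The mice were KO, that is Cpt1a fl/fl with Villin-CreER and Lgr5-GFP-IRES-CreER, or wild type (WT), which as labelled carried both drivers alone. They ate a high-fat diet (HF) or a high fat control diet (HFC). The 8 groups, KO HF, WT HF, KO HFC and WT HFC stem cells and the same 4 of progenitors, held 4 libraries each, 32 in all, of which the labels give 2 female and 2 male per group. The product of Cpt1a passes long-chain fatty acids into mitochondria for oxidation. The Villin driver acts in the intestinal epithelium as a whole and the Lgr5 driver in stem cells, and both are inducible. All mice, controls included, carried both drivers and the GFP allele of Lgr5. The labels give no age, induction schedule or length of diet, and do not say whether animals were pooled.

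The depth was 3307711 to 7337425 estimated counts per library (median 5655066.5). The columns carry no replicate number or sex, so the libraries of a group are called a to d by column order. Libraries of the same letter stand in the same run of neighbouring columns, which holds each group once. Cpt1a held 18.8 to 30.6 CPM (read counts on a common library size, after TMM scaling) in the KO libraries, against 119 to 347 CPM in the WT libraries. Lgr5 held 282 to 515 CPM in stem cells and 11.9 to 85.7 CPM in progenitors. All 10 markers of crypt base stem cells were called higher in the Lgr5-high sort, beside 32.5% of all genes tested. The list includes Lgr5, whose reporter defined the sort. These markers summed to 13837 to 19163 CPM in stem cells and to 2951 to 7544 CPM in progenitors. All 10 goblet, 9 Paneth and 10 enteroendocrine markers and 9 of 10 enterocyte markers were lower in stem cells. Of all genes tested, 31.0% were called lower. Goblet markers summed to 269 to 922 CPM in stem cells and to 9676 to 27183 CPM in progenitors, Paneth markers to 219 to 2639 and 3967 to 25234 CPM, enteroendocrine markers to 6.02 to 76.3 and 709 to 1714 CPM, and enterocyte markers to 943 to 2152 and 1804 to 7261 CPM. White blood cell markers summed to 28.2 to 56.1 CPM in stem cells and to 28.8 to 53.7 CPM in progenitors. No marker of the goblet, Paneth, enteroendocrine and enterocyte lists was at 0 in all libraries of either population. Markers of differentiated cells therefore moved with every stem cell and progenitor difference below, and their part in these differences was not tested. In bulk samples, fewer cells in S phase and less RNA of a gene per cell cannot be told apart.

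Replication genes are known targets of E2F factors, and promoter letters of the called genes are shown for that reason. RefSeq windows (GRCm38.p6) of the 250 bases before the start site were at hand for 31 of the 38 genes, and not for Ccne2, Gins1, Gins2, Gins4, Mcm4, Pole and Rfc2. The E2F-type motif TTTNNCGC, read on both strands, occurred in 9 of the 31 genes (29.0%), namely Mcm5, Mcm6, Mcm7, Orc1, Cdc6, Gins3, Rfc3, Pola1 and Uhrf1, against 4.94% of the 27025 genes in the table. The CCAAT box, CCAAT, occurred in 20 of the 31 (64.5%), against 37.5% of all genes. The cell-cycle homology motif TTTGAA occurred in 4 (12.9%), against 18.3% of all genes. Of the genes with an E2F-type match, Pola1, Mcm6 and Mcm7 were among the 10 with the largest increase in stem cells over progenitors. The others with a match, Mcm5, Orc1, Cdc6, Gins3, Rfc3 and Uhrf1, were not called between populations in the reported fit. Mcm2, Pold1, Pola2 and E2f1 were called higher in stem cells and had a window without a match. Whether a match goes with the population difference was not tested. The stretches of Pola1 and Mcm6 lie outside annotated exons and are given 5′ to 3′ on the minus strand with E2F-type matches in capitals, Pola1 at chrX:93632156-93632293 and Mcm6 at chr1:128359706-128359825. The last base printed is the base before the start site.
Pola1: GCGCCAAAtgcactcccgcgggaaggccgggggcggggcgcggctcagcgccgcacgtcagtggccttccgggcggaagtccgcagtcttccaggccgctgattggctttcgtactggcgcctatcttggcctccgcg
Mcm6: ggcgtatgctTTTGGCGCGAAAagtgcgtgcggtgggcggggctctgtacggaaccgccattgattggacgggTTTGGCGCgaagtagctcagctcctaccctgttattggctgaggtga
Pola1 holds 1 match, on the opposite strand, and Mcm6 holds 3, of which a pair on opposite strands overlaps at the left. A match is a description of letters, and binding was not measured.

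Levels between genes were compared per length, as TPM, a length-normalised abundance with a common total in every library, in which the 38 genes spanned more than an order of magnitude. On this scale the median of all genes tested was also higher in stem cells, by 0.27 in log2. The TPM values below therefore rank genes within a population, and differences between populations are given further on with TMM scaling. The clamp loader subunit Rfc2 was highest in stem cells, with a median of 344 TPM over the 16 stem cell libraries (304 to 436), against 240 TPM in progenitors (178 to 283). The helicase subunit Mcm6 followed at 324 TPM (260 to 380) in stem cells and 226 TPM (166 to 271) in progenitors. The sliding clamp Pcna had 270 TPM (216 to 336) in stem cells and 238 TPM (172 to 275) in progenitors. The ribonucleotide reductase subunit Rrm1 (218 against 166 TPM) and the helicase subunit Mcm7 (215 against 146 TPM) came next by median. These neighbours in the order had overlapping ranges. The catalytic subunit of the leading-strand polymerase, Pole, was lowest, with 11.4 TPM (7.56 to 17.1) in stem cells and 7.84 TPM (4.08 to 11.9) in progenitors. Orc1, the largest subunit of the origin recognition complex, had 13.3 and 9.89 TPM, the GINS subunit Gins3 15.3 and 11.1 TPM, and Pola1, the catalytic subunit of the primase-coupled polymerase, 21.1 and 13.1 TPM. The other MCM subunits lay between these ends, with medians in stem cells of 155 TPM for Mcm2, 146 TPM for Mcm3, 94.4 TPM for Mcm4 and 161 TPM for Mcm5, although the MCM proteins act as a complex of equal parts.

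**Figure D1:**
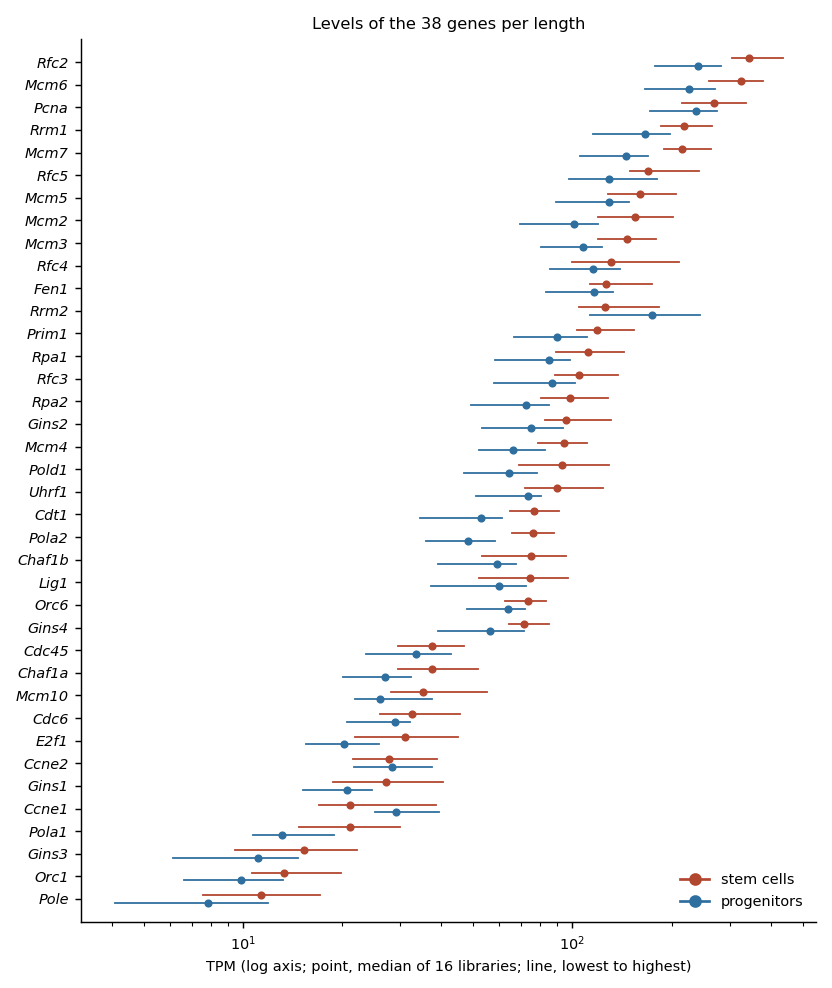
TPM (log axis) of the 38 genes in stem cells (red, upper) and progenitors (blue, lower), each with the median of 16 libraries as a point and the lowest to highest library as a line. Rfc2 stands at the top at 344 TPM in stem cells and Pole at the bottom at 11.4 TPM, and Rrm2, Ccne1 and Ccne2 are the genes whose progenitor point lies to the right of the stem cell point. On this scale the median of all genes tested is also higher in stem cells, by 0.27 in log2, so the order of 2 points is not a call.

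Part of the fork machinery was slightly higher in stem cells than in progenitors, while both cyclin E genes and the small subunit of ribonucleotide reductase were lower. All 5 genes of the polymerases and primase and 6 of 10 licensing genes were higher in stem cells, by 1.11- to 1.31-fold. Rrm2, Ccne1 and Ccne2 were lower in stem cells, by 1.70-, 1.56- and 1.28-fold. Of the 38 genes, 17 were higher, 3 were lower and 18 were not called at an adjusted p of 0.05 in edgeR's quasi-likelihood test over all 32 libraries. Among all 13088 genes tested 32.5% were called higher and 31.0% lower in stem cells, 63.5% in all. The share of the 38 called in either direction, 20 genes, was therefore no larger than that background. Their median log2 fold change was 0.16, against 0.02 over all genes tested, and 30 of 38 (78.9%) had a value above 0, against 52.6% of all genes. Other scalings and tests moved such small values. Under library totals without TMM the median of all genes stood at 0.19 and with limma on log2 TPM at 0.27, and the 38 genes' median lay 0.13 and 0.17 above it, as it lay 0.13 above it with TMM. The count of calls became 30 higher and 3 lower under library totals and 35 higher and 2 lower in limma on TPM. No called gene turned its direction under these 2 alternatives. Orc6, Cdc45, Pcna, Rfc4 and Fen1, none of them called with TMM, had values below 0 with TMM and above 0 in both. Library totals called none of these genes, while limma on TPM called each higher in stem cells, with an adjusted p of 0.0353 or less.

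**Figure D2:**
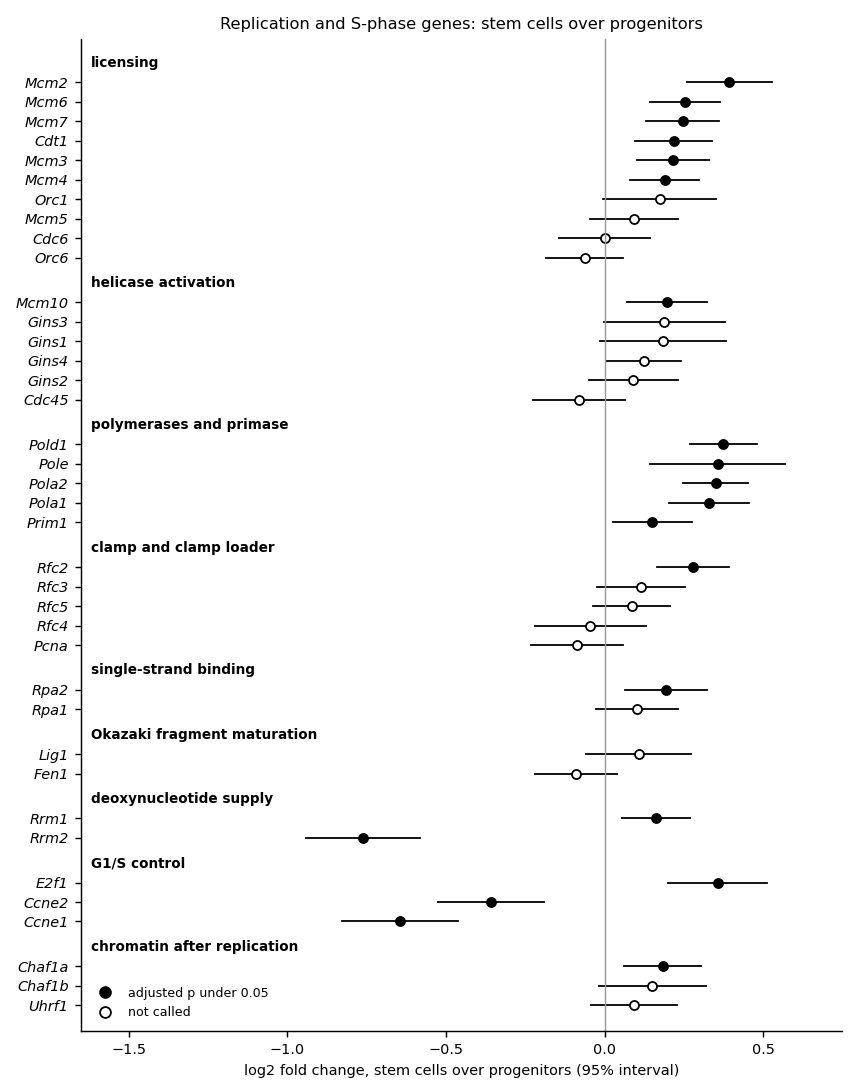
Log2 fold change of stem cells over progenitors for the 38 genes, ordered by role, with 95% intervals; filled points passed an adjusted p of 0.05 in edgeR. The 5 polymerase and primase genes are all filled and right of 0, and Rrm2 (-0.76), Ccne1 (-0.65) and Ccne2 (-0.36) are filled and left of 0; under library totals without TMM Orc6, Cdc45, Pcna, Rfc4 and Fen1, open here, move to the right of 0.

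Among licensing genes, Mcm2 (ENSMUSG00000002870, a helicase subunit, at GRCm38 chromosome 6, 88883474 to 88898780, minus strand) ranged over 237 to 381 CPM with a median of 307 CPM in stem cells, against 174 to 276 CPM with a median of 247 CPM in progenitors. The highest progenitor libraries overlapped the lowest stem cell libraries. Its log2 fold change was 0.39 ± 0.07 (SE), with an adjusted p of 1.02e-05. The helicase subunits Mcm6 (0.25 ± 0.06, adjusted p = 0.00025), Mcm7 (0.25 ± 0.06, adjusted p = 0.000501), Mcm3 (0.22) and Mcm4 (0.19) and the loading factor Cdt1 (0.22 ± 0.06, adjusted p = 0.00304) were also higher in stem cells. The remaining helicase subunit, Mcm5, had 0.09 and was not called. Neither were Orc1 (0.17), Orc6 (-0.06) and Cdc6 (0.00), the ATPase that recruits CDT1 and MCM. The interval of Cdc6 with TMM was -0.14 to 0.14 on the log2 scale. Other scalings gave values outside it, and Cdc6 was then called higher in stem cells. It had 0.17 under library totals without TMM (adjusted p = 0.0378) and 0.28 in limma on TPM (adjusted p = 0.000849). The interval therefore does not bound the difference across scalings.

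Of the genes that activate the helicase, Mcm10, which acts at origin firing, was called (0.20 ± 0.06, adjusted p = 0.00911). The GINS subunits Gins1 (0.19), Gins2 (0.09), Gins3 (0.19) and Gins4 (0.12) had values above 0 and were not called. Cdc45 had -0.08 and was not called.

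The polymerases and primase were the role in which every listed member was called in the reported fit. Prim1 kept its call in 20 of 32 fits that each left out a single library. Without library c of the progenitor groups, an alternative described below, Prim1 had 0.07 and was not called. Pold1 (chromosome 7, 44532746 to 44548849), the catalytic subunit of the lagging-strand polymerase, ranged over 155 to 224 CPM with a median of 178 CPM in stem cells, against 107 to 168 CPM with a median of 139 CPM in progenitors. Its log2 fold change was 0.37 ± 0.05, with an adjusted p of 5.46e-07. Pole had 22.6, 36.8 and 54.6 CPM as the lowest, median and highest stem cell library, against 17.7, 29.8 and 37.1 CPM in progenitors. Its difference, 0.36 ± 0.11 with an adjusted p of 0.00522, had the widest interval of this role. The genes of the priming polymerase were higher in stem cells too, namely Pola2 (0.35 ± 0.05, adjusted p = 9.11e-07), its accessory subunit, Pola1 (0.33 ± 0.06, adjusted p = 4.88e-05), and Prim1, the catalytic primase subunit (0.15 ± 0.06, adjusted p = 0.039). For Pold1 and Pole the lowest stem cell values lay inside the progenitor range.

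The sliding clamp did not follow in the reported fit. Pcna had 163, 213 and 292 CPM as the lowest, median and highest stem cell library, against 181, 243 and 276 CPM in progenitors, and its log2 fold change of -0.09 ± 0.07 was not called (adjusted p = 0.318). The 2 populations overlapped over nearly their whole range. The direction of Pcna depended on the scaling and on the libraries used. It was called higher in stem cells in limma on TPM (0.23, adjusted p = 0.0016). Without library c of the progenitor groups, an edgeR fit described below, it was called lower (-0.17, adjusted p = 0.0398). A processed copy, Pcna-ps2, held 445 counts in all libraries beside 41030 for Pcna, so few Pcna reads could have been assigned to it. Of the loader subunits, Rfc2 was higher in stem cells (0.28 ± 0.06, adjusted p = 0.00012), while Rfc3 (0.12), Rfc5 (0.09) and Rfc4 (-0.04) were not called. The single-strand binding subunit Rpa2 was called (0.19) and Rpa1, its larger partner, was not (0.10). Neither gene of Okazaki fragment maturation was called, with 0.11 for the ligase Lig1 and -0.09 for the flap nuclease Fen1. With a block by column set, an alternative fit, 25 genes were called instead of 20, the added ones being Orc1 (adjusted p = 0.0489), Gins3 (0.042), Gins4 (0.021), Chaf1b (0.0333) and, lower in stem cells, Fen1 (0.0473).

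Ribonucleotide reductase makes deoxynucleotides from a large subunit, encoded by Rrm1, and a small subunit whose level follows S phase, encoded by Rrm2. Rrm2 (chromosome 12, 24708241 to 24714146) ranged over 125 to 222 CPM with a median of 157 CPM in stem cells, against 179 to 372 CPM with a median of 269 CPM in progenitors. The ranges met between 179 and 222 CPM. Its log2 fold change of -0.76 ± 0.09 had an adjusted p of 2.79e-08, the largest difference of the 38 genes in either direction. Rrm1 was higher in stem cells (0.16 ± 0.05, adjusted p = 0.0106), so the genes of the 2 subunits differed in opposite directions.

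In G1/S control, Ccne1 and Ccne2 encode cyclin E1 and E2, which activate CDK2 at S-phase entry, and E2f1 encodes a transcription factor that drives replication genes. Ccne1 (chromosome 7, 38097984 to 38107534) had 19.3, 24.7 and 45.6 CPM as the lowest, median and highest stem cell library, against 34.5, 41.1 and 57.3 CPM in progenitors. Its log2 fold change was -0.65 ± 0.09, with an adjusted p of 5.46e-07. Ccne2 (chromosome 4, 11191351 to 11204779) had 34.3, 44.4 and 64.4 CPM in stem cells and 44.4, 56.4 and 80.1 CPM in progenitors, a log2 fold change of -0.36 ± 0.09 with an adjusted p of 0.000536. The Ccne2 call is less sure than that of Ccne1, because its exons overlap those of Ints8 on the other strand, and because its value was -0.03 and not called in limma on TPM. E2f1 went the other way, with 37.6, 50.8 and 75.1 CPM in stem cells and 31.5, 40.2 and 47.0 CPM in progenitors (0.36 ± 0.08, adjusted p = 0.000244). For all 3 genes the populations overlapped. Behind the fork, the histone chaperone subunit Chaf1a was higher in stem cells (0.18 ± 0.06, adjusted p = 0.0106). Its partner Chaf1b (0.15) and Uhrf1 (0.09), which brings the maintenance methyltransferase to new DNA, were not called.

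**Figure D3:**
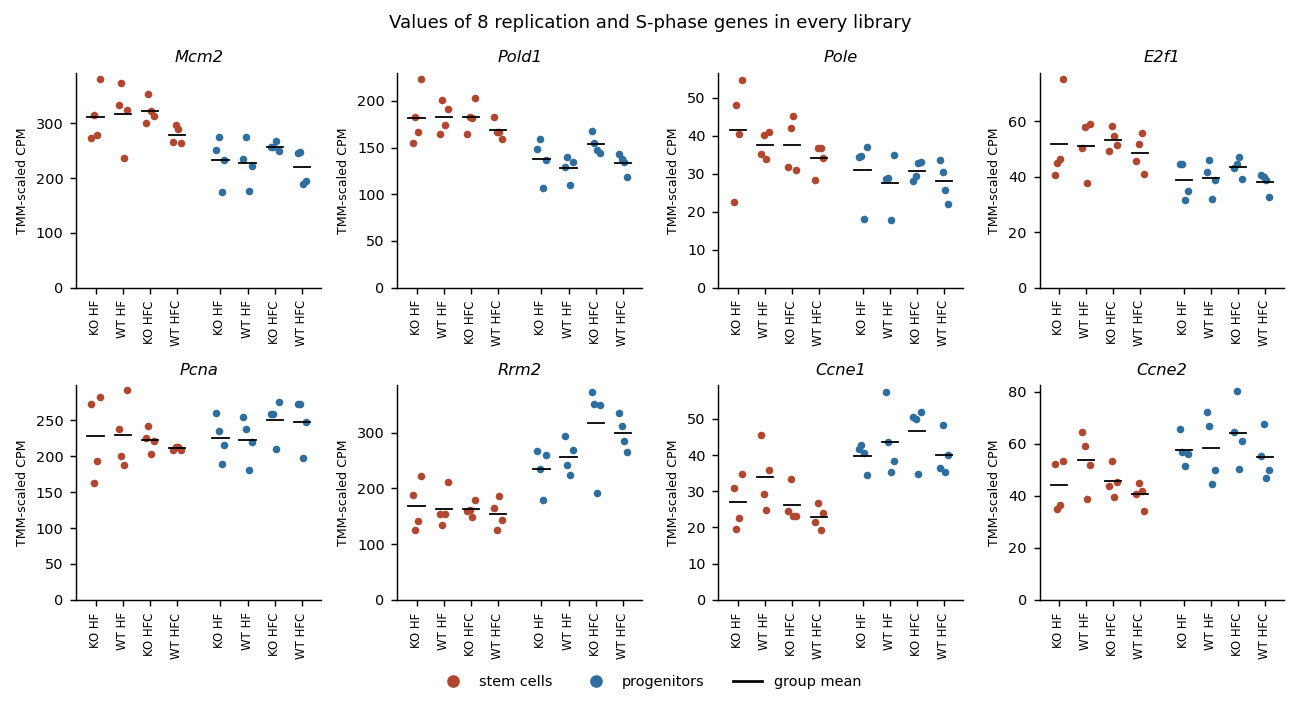
TMM-scaled CPM of 8 genes in every library (points; bars are group means), with the 4 stem cell groups at the left and the 4 progenitor groups at the right of each panel. Stem cell points lie mostly above progenitor points for Mcm2, Pold1, Pole and E2f1, mostly below them for Rrm2, Ccne1 and Ccne2, and among them for Pcna.

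Counting without strand would mix reads of overlapping genes, and the strand setting is not given in the sources used here. Exons of 13 of the 38 genes overlap a gene on the opposite strand. Among the called genes these are Mcm7 (Cops6 and Ap4m1), Rfc2 (Lat2, which held 8 counts in all libraries), Pole (Gm15792, 7 counts), Chaf1a (Ubxn6) and Ccne2 (Ints8). The values of Mcm7, Chaf1a and Ccne2 are uncertain to that extent.

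Of 84 other genes of licensing, fork, nucleotide supply, chromatin, G1/S control and checkpoint, 35 were higher and 12 lower in stem cells, a share called no larger than the 63.5% of all genes. The counts of the lists that follow stand beside the same background of 32.5% of all genes called higher and 31.0% lower. Of 29 other fork genes 15 were higher and 2 lower, led by Topbp1 (0.39, adjusted p = 1.67e-06), an activator of both origin firing and the ATR checkpoint. Of 8 checkpoint genes 6 were higher and none lower, with 0.99 for Wee1, the kinase that restrains CDK1 and CDK2, 0.38 for Rad9a and 0.37 for Atr. Of 7 other genes of nucleotide supply, none was higher and 2 were lower, the salvage kinases Tk1 (-0.29, adjusted p = 0.0144) and Dck (-0.17, adjusted p = 0.00344). Of 8 other licensing genes 4 were higher and 1, Orc4, was lower. The 24 other G1/S genes were divided, with 7 higher and 6 lower. Cdk6, a partner of the D cyclins, had 1.17 and Myc 0.80, while E2f2 had -1.57, Mycn -1.01 and the D cyclin Ccnd3 -0.57. Of 6 CDK inhibitors tested, 4 were lower in stem cells and none higher. These were Cdkn2b (-4.93), Cdkn1a (-2.91), Cdkn1c (-2.61) and Cdkn2d (-0.40), each with an adjusted p of 0.00309 or less. In the mitosis list of 30 genes, 10 were higher and 1 lower in stem cells, a share of higher calls near the 32.5% of all genes, with a median log2 fold change of 0.12 and Cenpf, a kinetochore protein, at 0.57.

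The difference between populations was then read in each genotype and diet. In KO HF, 7 genes were higher and 2 lower, where 14.1% of all genes were called higher and 17.3% lower (31.4% in all). In WT HF 10 were higher and 1 lower, against 17.3% and 20.1% of all genes (37.3% in all). In KO HFC 1 was higher and 3 were lower, against 17.3% and 19.5% (36.8% in all). In WT HFC 3 were higher and 3 lower, against 19.3% and 22.0% (41.4% in all). The medians of the 38 genes were 0.22 in KO HF, 0.25 in WT HF, 0.03 in KO HFC and 0.08 in WT HFC, against 0.01 to 0.03 over all genes. Without library c of the progenitor groups, an alternative described below, these medians were 0.13 in KO HF, 0.16 in WT HF, -0.0090 in KO HFC and -0.0014 in WT HFC. The values in HFC were then no higher than the medians of all genes, 0.04 and 0.02. Leaving out a single library moved these counts. In KO HF 4 genes were called without library d of the stem cells and 4 and 5 without library c or d of the progenitors. In WT HF 17 were called without library c of the stem cells, and 6 without library d of the stem cells or library c of the progenitors. In KO HFC 2 were called without library b of the progenitors, and in WT HFC 3 without library c of the stem cells or library d of the progenitors. Rrm2 was lower in stem cells in each of the 4, by 0.48 (KO HF), 0.65 (WT HF), 0.96 (KO HFC) and 0.95 (WT HFC) on the log2 scale. In KO HFC its 4 stem cell libraries held 160, 161, 149 and 180 CPM, against 372, 352, 192 and 350 CPM in progenitors. In KO HF they held 188, 126, 141 and 222 CPM, against 267, 235, 179 and 260 CPM. The groups overlapped in KO HF only, and in KO HFC progenitor library c lay close to the stem cells. Ccne1 was called lower in KO HF (-0.57), KO HFC (-0.84) and WT HFC (-0.81) and had -0.36 in WT HF (adjusted p = 0.123). Mcm2, Pold1 and Pola2 were each called higher in KO HF, WT HF and WT HFC, and had 0.33, 0.25 and 0.23 in KO HFC, where Pola1 (0.34) was the called gene. Whether a gene's population difference itself differed between diets was tested as the difference of the diet effects, given below, and none of the 38 passed.

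A single library per progenitor group, library c in each, weighed on these results. These libraries stand in the same run of neighbouring columns, and the columns do not say whether such a run is a batch. The 38 genes together summed to 4392 to 6654 CPM in stem cells (median 5069) and to 3657 to 5380 CPM in progenitors (median 4925). In each progenitor group library c had the lowest sum, with 3931 CPM in KO HF, 3657 in WT HF, 4633 in KO HFC and 4055 in WT HFC, while libraries a, b and d held 4563 CPM or more. Library c had the most enterocyte marker counts of its group in KO HF (7261 CPM), WT HF (5816 CPM) and WT HFC (3013 CPM) but the fewest in KO HFC (1804 CPM), and the part of these cells in the low sums was not tested. Without library c of all 4 progenitor groups, an alternative chosen after seeing the data, 12 genes were higher and 6 lower in stem cells, with a median of 0.08. Mcm10, Prim1, Rpa2, Rrm1 and Chaf1a were no longer called, and Pcna (-0.17), Fen1 (-0.16) and Cdc45 (-0.16) were then called lower. Mcm2, Pold1, Pole, E2f1, Pola1, Pola2, Rrm2, Ccne1 and Ccne2 kept their calls. In KO HF stem cells and WT HF stem cells library d stood highest, with 6654 and 6250 CPM, and both of these stand in another shared run.

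**Figure D4:**
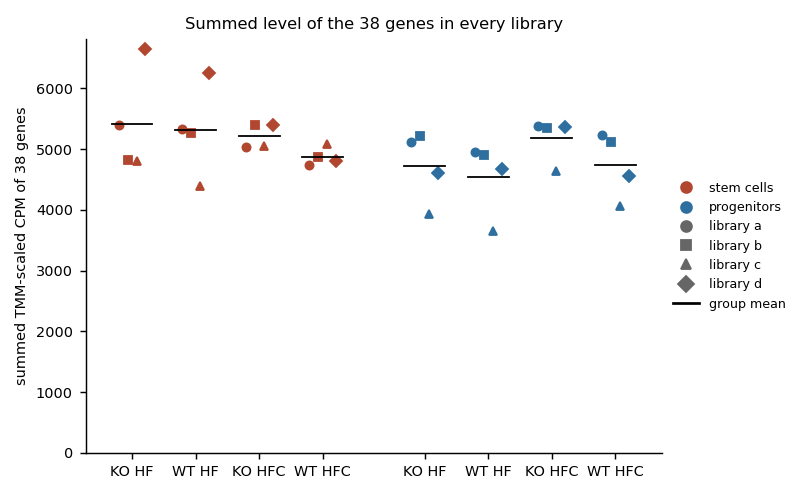
Summed TMM-scaled CPM of the 38 genes in every library, with stem cell groups at the left and progenitor groups at the right, a marker shape per library and bars for group means. The triangle (library c) is lowest in each progenitor group, at 3657 to 4633 CPM.

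The question for diet was whether HF changes these genes relative to HFC in either genotype and population. None of the 38 genes was called in KO or WT stem cells or in KO or WT progenitors. Few genes were called at all, 0.0645% in KO stem cells, 0.25% in WT stem cells, 0.313% in KO progenitors and 0.0883% in WT progenitors. At an unadjusted p under 0.05 there were 0, 4, 2 and 0 of the 38 genes in these comparisons, and DESeq2 and limma on TPM called none of them. Genes of a list were measured in the same libraries, so counts of values above or below 0, here and below, are not separate observations. Over all genes tested, the medians of the diet and genotype comparisons lay between -0.0022 and 0.010. In WT stem cells 36 of 38 values were above 0, with a median of 0.13. Markers of other cells moved in the same libraries without overlap, the goblet list summing to 790 to 922 CPM in WT HF and 269 to 534 CPM in WT HFC and the enterocyte list to 1271 to 1822 CPM and 943 to 1189 CPM. Stem cell markers had a median sum of 15474 CPM in WT HF and 18056 CPM in WT HFC, with overlapping ranges. The part of these markers in the diet and genotype values here and below was not tested. Orc1 held 35.4, 30.8, 16.6 and 30.8 CPM in WT HF stem cells, against 19.0, 22.1, 18.4 and 19.6 CPM in WT HFC stem cells. Library c of WT HF lay below all HFC libraries while the other 3 lay above them. The log2 fold change of Orc1 was 0.53 ± 0.18, with an interval of 0.19 to 0.87 and an adjusted p of 0.236. Without that library it was 0.70 with an adjusted p of 0.045. Ccne1 held 45.6, 29.4, 24.7 and 35.8 CPM in WT HF stem cells, against 21.5, 26.6, 19.3 and 24.1 CPM in WT HFC stem cells, with library c inside the HFC range (0.57 ± 0.20, adjusted p = 0.263). Ccne2 (0.41, adjusted p = 0.331) and Cdc6 (0.34, adjusted p = 0.362) were the other 2 genes past the unadjusted threshold.

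In KO stem cells 33 of 38 values were above 0, with a median of 0.07. Enterocyte markers summed to 1708 to 2152 CPM in KO HF, against 1061 to 1155 CPM in KO HFC, and the goblet (median 770 against 520 CPM) and Paneth lists (median 1734 against 536 CPM) had higher medians in KO HF with overlapping ranges. Mcm10 held 64.6, 77.2, 70.4 and 91.3 CPM in KO HF stem cells, against 59.7, 57.3, 61.3 and 72.8 CPM in KO HFC stem cells, and libraries a and c of HF lay inside the HFC range (0.28 ± 0.15, adjusted p = 0.999). Prim1 held 138, 100, 127 and 159 CPM in KO HF, against 123, 104, 110 and 120 CPM in KO HFC, with 3 HF libraries above all HFC libraries and 1 below them (0.21 ± 0.12, adjusted p = 0.999). Gins3 (0.23) and Rpa2 (0.18) came next by p.

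In KO progenitors 34 of 38 values were below 0, with a median of -0.14. In the same libraries enterocyte markers summed to 4678 to 7261 CPM in KO HF, against 1804 to 4610 CPM in KO HFC, and Paneth markers to 14629 to 25234 CPM in KO HF, against 3967 to 13134 CPM in KO HFC, neither with overlap. Rrm2 held 267, 235, 179 and 260 CPM in KO HF progenitors, against 372, 352, 192 and 350 CPM in KO HFC progenitors, and 3 of the 4 HFC libraries lay above all HF libraries. Its log2 fold change was -0.43 ± 0.18 with an adjusted p of 0.432. Without library c of KO HFC it was -0.61 with an adjusted p of 0.0296, and without library c of all progenitor groups -0.49 with an adjusted p of 0.0492. Rpa2 held 92.8, 94.9, 72.8 and 80.5 CPM in KO HF, against 98.4, 99.6, 96.2 and 108 CPM in KO HFC, groups that did not overlap (-0.24 ± 0.11, adjusted p = 0.493). Pola1 (0.20) and Cdc45 (-0.23) followed by p. In WT progenitors 25 of 38 values were below 0, with a median of -0.04. Paneth markers summed to 14477 to 24728 CPM in WT HF and 6182 to 15797 CPM in WT HFC there. Gins4 held 45.8, 45.4, 38.5 and 54.4 CPM in WT HF progenitors, against 59.5, 52.0, 44.1 and 57.9 CPM in WT HFC progenitors (-0.23 ± 0.12, adjusted p = 0.764). Pola1 held 49.4, 44.7, 42.1 and 48.5 CPM in WT HF, against 66.0, 55.7, 43.7 and 45.9 CPM in WT HFC (-0.21 ± 0.12, adjusted p = 0.795). Both pairs of groups overlapped.

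For genotype, the question was whether Cpt1a loss changes these genes on either diet. None of the 38 was called in stem cells on HF (0.443% of genes called) or HFC (0.242%), or in progenitors on HF (0.706%) or HFC (0.257%). At an unadjusted p under 0.05 there were 0, 0, 3 and 0 of them, and DESeq2 and limma on TPM called none. In stem cells on HF 23 of 38 values were above 0, with a median of 0.02. Ccne2 held 52.2, 35.04, 36.3 and 53.4 CPM in KO HF stem cells, against 64.4, 59.2, 38.9 and 52.0 CPM in WT HF stem cells (-0.28 ± 0.16, adjusted p = 0.862), and Ccne1 held 30.8, 19.5, 22.6 and 34.8 CPM, against 45.6, 29.4, 24.7 and 35.8 CPM (-0.34 ± 0.20, adjusted p = 0.873). Pola1 (0.20) and Orc1 (-0.25) followed. In stem cells on HFC 34 of 38 values were above 0, with a median of 0.09. Mcm2 held 301, 354, 323 and 314 CPM in KO HFC stem cells, against 266, 297, 290 and 263 CPM in WT HFC stem cells, groups that did not overlap (0.20 ± 0.12, adjusted p = 0.9998). Orc6 held 55.0, 54.6, 49.4 and 58.6 CPM in KO HFC, against 42.0, 47.2, 49.98 and 49.6 CPM in WT HFC, with 3 KO libraries above all WT libraries (0.19 ± 0.12, adjusted p = 0.9998). Cdt1 (0.16) and Mcm3 (0.14) followed.

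In progenitors on HF 28 of 38 values were above 0, with a median of 0.05. Pola1 held 59.2, 67.7, 48.8 and 61.3 CPM in KO HF progenitors, against 49.4, 44.7, 42.1 and 48.5 CPM in WT HF progenitors, and library c of KO was the only one inside the WT range. Its log2 fold change was 0.37 ± 0.12, with an interval of 0.13 to 0.61 and an adjusted p of 0.234. Gins4 held 53.6, 54.4, 57.1 and 57.0 CPM in KO HF, against 45.8, 45.4, 38.5 and 54.4 CPM in WT HF (0.28 ± 0.12, adjusted p = 0.411), and Mcm10 had 0.23 (adjusted p = 0.42). In progenitors on HFC 37 of 38 values were above 0, with a median of 0.17 and a range of -0.04 to 0.26. Rfc2 held 162, 166, 140 and 167 CPM in KO HFC progenitors, against 141, 142, 119 and 151 CPM in WT HFC progenitors, with 3 KO libraries above all WT libraries (0.20 ± 0.10, adjusted p = 0.862). Pold1 held 168, 155, 148 and 144 CPM, against 143, 138, 135 and 119 CPM, groups that did not overlap (0.21 ± 0.11, adjusted p = 0.881). The KO comparisons on HFC and the HF comparisons within KO share the KO HFC libraries, so the values above 0 in the first and below 0 in the second are not independent.

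**Figure D5:**
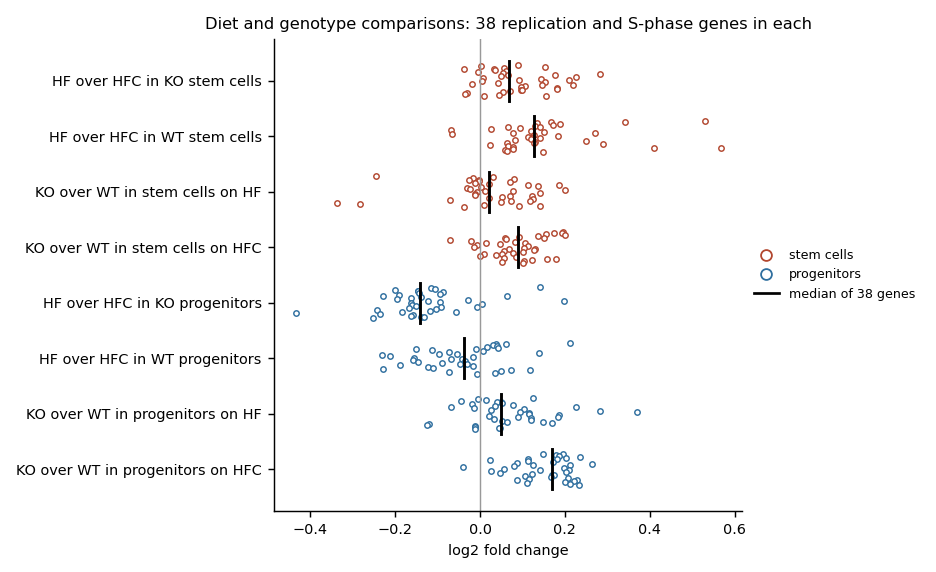
Log2 fold change of the 38 genes (open points, none called) in each diet and genotype comparison, stem cells in red above progenitors in blue, with the median as a bar. The medians run from -0.14 (HF over HFC in KO progenitors) to 0.17 (KO over WT in progenitors on HFC).

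The tests of differences between these effects called none of the 38 genes either, and no gene of the 12409, 12460 or 13088 tested passed in any of them (0.0% called in each). The diet by genotype interaction had 0 genes with an unadjusted p under 0.05 in stem cells and 1, Pola1, in progenitors (0.41 ± 0.17, adjusted p = 0.969). In stem cells Ccne2 (-0.44), Ccne1 (-0.51) and Orc1 (-0.44) had the smallest p, each with an adjusted p of 0.999. The diet effect averaged over genotypes was more positive in stem cells than in progenitors for 38 of 38 genes, by a median of 0.17, and 4 had an unadjusted p under 0.05, namely Rpa2 (0.33), Prim1 (0.31), Fen1 (0.29) and Rrm2 (0.39). Each of the 4 had an adjusted p of 0.866. The 38 genes were measured in the same libraries, so this count is not 38 separate observations. The genotype effect differed between populations by a median of -0.03, with 8 values above 0 and none past an unadjusted p of 0.05. DESeq2 and limma on TPM called none of the 38 in these 4 tests.

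The values of the mitosis list are given beside those of the replication genes as a description. In HF over HFC in KO stem cells 30 of its 30 genes had values above 0, with a median of 0.26, beside 0.07 for the replication genes. In WT stem cells 11 of 30 were above 0, with a median of -0.05, beside 0.13. In KO over WT stem cells on HF 30 of 30 were above 0, with a median of 0.23, beside 0.02, and on HFC 5 of 30, with a median of -0.11, beside 0.09. The comparisons with 30 of 30 above 0 share the KO HF stem cell libraries, so they are not independent. Summed CPM of the mitosis list overlapped between these groups, with 4217 to 5064 in KO HF, 3204 to 4792 in WT HF and 3092 to 4657 in KO HFC. No mitosis gene was called in these 4 comparisons, and whether the 2 lists differ was not tested.

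Within groups, the standard deviation of log2 of CPM plus 1 had a median of 0.20 over the 38 genes and 0.22 over all genes tested. It was smallest for Pola2 (0.15) and Pold1 (0.16) and largest for Pole (0.33), the gene with the lowest TPM. The standard errors of the 304 diet and genotype values of these genes ran from 0.09 to 0.22 on the log2 scale, with a median of 0.13. The medians of the diet and genotype values were of about this size or smaller, and differences of that size were not detectable gene by gene, so an uncalled gene may still differ.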

How the data were processed

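Mouse polyA RNA libraries were prepared from TRI reagent extracts of sorted crypt cells with a Clontech protocol, per the labels' protocols. The submitters' processing notes name the build mm10 and, in no stated role or order, SAMtools 1.3, RSEM 1.3.0 and STAR 2.5.3a, and the annotation and strand setting are not given in the sources used here. The first table holds expected counts per Ensembl gene that the authors had rounded to whole numbers before they were deposited, since 2831 zero counts stand beside a positive TPM. The second table, as deposited, holds log2 values, the log2 of TPM plus 1.

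From these counts, genes were filtered with filterByExpr (minimum count 10), scaled with TMM and tested in edgeR 4.0.16 (R 4.3.3) by robust quasi-likelihood fits, with Benjamini-Hochberg adjustment over all genes tested and a threshold of 0.05. All 32 libraries (13088 genes) served stem cells against progenitors and differences between populations. Stem cells (12409 genes) and progenitors (12460 genes) were fitted apart for diet, genotype and their interaction. Standard errors were derived from the log2 fold change and the quasi-likelihood F, and 95% intervals are 1.96 standard errors to either side. CPM in the text is TMM-scaled. Symbols (50376 of 50686 genes named) came from a table of gene names, gene overlaps from GENCODE M21, and promoters from RefSeq. The fits were tested on simulated data. Alternatives were no filter, library totals without TMM, DESeq2 1.42.0, limma 3.58.1 on log2 TPM, only the libraries compared, each library left out, a block by column set, and Xist as a covariate, since the columns carry no sex or replicate number.

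The genes, the lists and the tests were chosen with earlier results of these data known. Full statistics went to called genes, up to 10 in each direction, or to the 4 with the smallest p, and values of every library to 8 genes between populations and otherwise to the 2 with the smallest p. Nothing in the labels says that the libraries of a group came from separate animals, so p-values measure the spread between these samples. Sample titles of both populations carry the same replicate numbers, and whether a stem cell and a progenitor library share an animal is not known here. The main fit of both populations had no term for such pairs. The Mcm7 promoter was not shown because its window overlaps annotated exons.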

Additional observations from a re-analysis of the deposited data

Results flagged for a closer look

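In 5 of 82 sets of 4 libraries of a group, the highest or lowest library lay apart from the other 3 by more than Dixon's critical share of the range, a flag that chance raises in about 1 in 20 sets. Ccne1 held 33.4 CPM in 1 KO HFC stem cell library, against 23.1, 23.2 and 24.6 CPM in the others. In KO HFC progenitors Ccne1 held 34.8 CPM in library c, against 50.1, 50.4 and 51.9 CPM in the others. Rrm2 held 192 CPM in that same library, against 350, 352 and 372 CPM. E2f1 held 75.1 CPM in library d of KO HF stem cells, against 40.6, 45.0 and 46.5 CPM. Pole held 18.05 CPM in library c of KO HF progenitors, against 34.3, 34.6 and 37.1 CPM.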

How the results depend on the processing

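Counts of called genes between stem cells and progenitors changed under library totals without TMM, which differs in scaling alone, and in limma on log2 TPM, which differs in input, scaling and test. For all groups together, KO HF, WT HF, KO HFC and WT HFC in turn, library totals without TMM called 33, 20, 27, 9 and 16 genes and limma on log2 TPM 37, 30, 32, 15 and 25. The shift of the median of all genes under these alternatives is given above. Genes below 0 with TMM and above 0 under library totals and in limma on TPM were Orc6 (0.102 and 0.223), Cdc45 (0.0838 and 0.174), Pcna (0.0774 and 0.233), Rfc4 (0.119 and 0.252) and Fen1 (0.0748 and 0.192). Limma on TPM called each of them higher in stem cells, and library totals called none of them. Cdc6, at 0 in the reported fit, was called higher in stem cells under library totals (0.166) and in limma on TPM (0.282). It had -0.0052 in DESeq2, -0.0876 without library c of all progenitor groups and -0.0362 to 0.0336 with each library left out. Lig1 had -0.00231 without these libraries. Fitting only the libraries compared called 4 genes in KO HF and 7 in WT HF. Leaving out library c of all progenitor groups, chosen after seeing the data, called 7 in WT HF and 1, Rrm2, for HF over HFC in KO progenitors.

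With each library left out in turn, 19 to 22 genes were called between populations, 4 to 13 in KO HF, 6 to 17 in WT HF, 2 to 6 in KO HFC and 3 to 8 in WT HFC. Prim1 was the called gene that lost its call, in 12 of 32 such fits. For HF over HFC, 0 to 1 were called in WT stem cells and 0 to 1 in KO progenitors.

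The columns carry no replicate number, so a block was tried by runs of 8 neighbouring columns, which are the letters a to d. Libraries of a run correlated in their deviations from the group means by -0.08 to 0.30, and 30 of 32 correlated best with their own run, a hint from the data and not the design. With this replicate block 25 genes were called between populations, the 5 added being Orc1, Gins3, Gins4, Fen1 and Chaf1b, with 14 called in KO HF, 16 in WT HF and 8 in KO HFC, and none in the diet and genotype comparisons. No filter, DESeq2 and Xist as a covariate left these counts within 1.5 times. Gins1, with a median of 15.9 CPM in stem cells and 14.6 CPM in progenitors, had a standard error of 0.10 between populations and Pole, at 36.8 and 29.8 CPM, 0.11, and how far depth sets these errors was not tested.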
